A study of Mus musculus with 6 samples.

Results

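The regions described here are sites inside genes at which HA-tagged CDK6 was found by ChIP-seq away from any promoter. Peaks of the 4 anti-HA peak lists were merged where they shared at least 1 bp, which gave 56716 regions on chromosomes 1 to 19 and X, and 22973 of them, called shared, held a peak of 3 or 4 lists. A shared region was taken as a member when it lay within the body of a protein-coding gene of GENCODE vM21, overlapped no exon of any transcript and kept at least 5000 bp from the nearest transcript start. This left 3301 members, 14.4% of the shared regions (95% Wilson interval 13.9% to 14.8%), in 1660 genes. The rule used peak presence and annotation, and no measured height beyond that. A peak is listed only where its q-value passed the caller's threshold, so regions below it were left out beforehand. In contrast, 10993 shared regions overlapped a promoter (2000 bp before to 200 bp after a transcript start) and 3731 lay outside all genes and at least 5000 bp from a start. These 2 kinds are the comparators below.

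The cells were murine pre/pro-B cell lines that were BCR::ABL1(p185)+ and Cdk6-/-, so that all groups lacked endogenous CDK6. They overexpressed either HA-tagged CDK6-WT (2 libraries) or HA-tagged CDK6-K43M, which has no kinase activity (2 libraries), and the comparison asks whether kinase activity alters where CDK6 sits on chromatin. CDK6 was expressed from a vector and not from its own locus, and the labels do not say whether the 2 libraries of a group came from separate cultures, so p-values measure the spread between these libraries, which may be technical. The 4 lists held 34729 to 39797 peaks, called by the authors in each library separately. The lists state no read totals. However, the whole reads at each summit could be recovered from the fold enrichment and the p-value of a peak (100% of the peaks in each list within 0.001 of the -log10 p), and the median summit of a list held 15 to 23 reads. Values of single regions therefore rest on few reads.

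CDK6 is a cyclin-dependent kinase that pairs with D-type cyclins and phosphorylates the retinoblastoma protein in G1. It has no DNA-binding domain, and it is known to reach chromatin through transcription factors and other partners, among which AP-1 and STAT proteins have been described. Sites in introns far from a start are often enhancers, which carry motifs of the transcription factors that specify a cell type. In early B cells these factors include EBF1, PAX5, the E proteins, RUNX1, IKZF1, FOXO1 and ETS-family members such as PU.1 and ETS1.

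The sequences below show what the centres of these regions look like. Each is a window centred on the summit, plus strand of GRCm38.p6 (mm10) as RefSeq gives it, in lower case. Capitals mark a match on either strand to RUNX (TGTGGTT), ETS (AGGAAGT or CGGAAGT), EBF (TCCCNNGGG), E-box (CAGCTG or CAGGTG) or AP-1 (TGANTCA). For each of these motifs the highest-ranked member with a peak in all 4 lists and a match within 50 bp of the summit is shown, among the members considered for printing and with each used for 1 motif. The 3 members in Cdk6 follow because Cdk6 encodes the immunoprecipitated protein, and the 2 highest-ranked members of all, in Rmi2 and Ubqln1, because neither window holds a match to any of the 5, which was known when they were picked.
RUNX, Hs3st1 (chr5:39631145-39631265): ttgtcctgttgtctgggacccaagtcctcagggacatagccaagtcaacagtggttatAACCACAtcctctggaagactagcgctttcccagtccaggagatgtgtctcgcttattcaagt
ETS, Fam107b (chr2:3658001-3658121): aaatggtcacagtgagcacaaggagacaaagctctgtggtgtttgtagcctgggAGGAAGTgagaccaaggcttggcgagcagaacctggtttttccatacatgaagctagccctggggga
EBF, Gng12 (chr6:66987774-66987894): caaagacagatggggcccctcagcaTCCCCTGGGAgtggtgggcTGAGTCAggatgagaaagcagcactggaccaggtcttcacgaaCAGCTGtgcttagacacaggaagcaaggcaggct
E-box, Inpp5d (chr1:87650724-87650844): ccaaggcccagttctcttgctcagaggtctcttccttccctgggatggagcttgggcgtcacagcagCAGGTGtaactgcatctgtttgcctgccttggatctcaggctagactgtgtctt
AP-1, Nod2 (chr8:88668738-88668858): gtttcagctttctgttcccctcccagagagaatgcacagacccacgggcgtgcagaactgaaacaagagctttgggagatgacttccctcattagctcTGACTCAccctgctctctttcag
Cdk6, intron 3 (chr5:3420464-3420584): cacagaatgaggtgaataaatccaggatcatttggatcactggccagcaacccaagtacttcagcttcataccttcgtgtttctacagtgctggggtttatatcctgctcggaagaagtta
Cdk6, intron 4 (chr5:3461154-3461274): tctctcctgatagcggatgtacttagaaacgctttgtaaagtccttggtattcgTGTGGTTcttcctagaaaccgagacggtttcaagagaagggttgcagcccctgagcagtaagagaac
Cdk6, intron 5 (chr5:3490474-3490594): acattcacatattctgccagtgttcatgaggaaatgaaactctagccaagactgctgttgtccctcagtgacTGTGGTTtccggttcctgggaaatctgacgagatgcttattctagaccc
Rmi2 (chr16:10844129-10844249): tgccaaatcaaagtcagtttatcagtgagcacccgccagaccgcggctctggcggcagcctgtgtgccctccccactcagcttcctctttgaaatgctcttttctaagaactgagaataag
Ubqln1 (chr13:58198068-58198188): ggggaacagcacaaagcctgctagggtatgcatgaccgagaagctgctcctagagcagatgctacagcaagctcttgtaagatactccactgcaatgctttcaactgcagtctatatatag

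The median height of the members was close to 7-fold over the local background in each library, taken over the members with a peak in that list. The rule itself asks for a peak in at least 3 lists. Of the 3301 members, 2888 had a peak in CDK6-WT replicate 1, 3063 in CDK6-WT replicate 2, 3133 in CDK6-K43M replicate 1 and 3095 in CDK6-K43M replicate 2, and 2276 (68.9%, 67.3% to 70.5%) had one in all 4 lists. The median fold enrichment at the summit over the local background was 6.80 and 7.04 in the CDK6-WT libraries and 6.77 and 7.01 in the CDK6-K43M libraries. The median summit held 22, 23, 26 and 21 reads in the same order. Members had a median width of 558 bp, against 721 bp for shared promoter regions and 542 bp for shared intergenic regions.

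The rank of the members within a list, however, moved with the replicate number. Peaks were ranked by their -log10 q within a list, from 0 to 100, with the strongest at 100. The median member stood at percentile 54.4 in CDK6-WT replicate 1 and 57.4 in CDK6-K43M replicate 1, but at 71.9 in CDK6-WT replicate 2 and 74.4 in CDK6-K43M replicate 2. Shared promoter regions showed the opposite order, with 75.2 and 77.7 in the replicate 1 libraries and 57.6 and 58.4 in the replicate 2 libraries. Members therefore ranked 20.8 and 20.2 percentiles below promoter regions in the replicate 1 libraries and 14.3 and 16.1 above them in the replicate 2 libraries. The mean of the 4 differences was -2.68 ± 20.6 (SD, n = 4 libraries, exact two-sided sign-flip p = 0.75), where the smallest p that 4 libraries allow is 0.125. Against shared intergenic regions the differences were smaller, -3.87 and -3.04 in the replicate 1 libraries and 6.74 and 6.69 in the replicate 2 libraries (exact sign-flip p = 0.75).

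**Figure D1:**
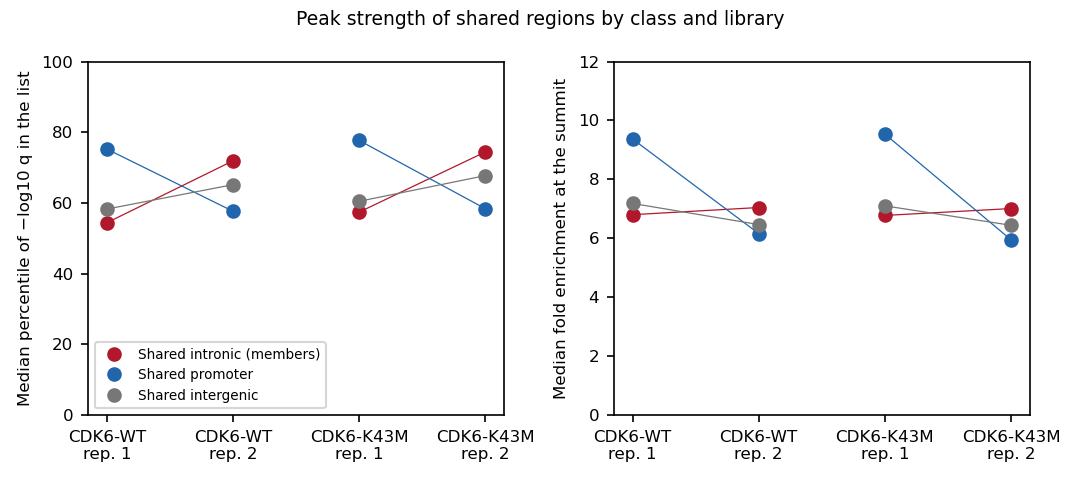
Median percentile of -log10 q within a list (left) and median fold enrichment (right) of shared intronic, promoter and intergenic regions in each of the 4 libraries, with thin lines joining the 2 libraries of a variant. Without centring by library, the members' median fold enrichment stays between 6.77 and 7.04. That of promoter regions falls from 9.37 to 6.16 (CDK6-WT) and from 9.54 to 5.95 (CDK6-K43M) between the libraries numbered 1 and 2.

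The fold enrichment of the members hardly moved with the number, whereas promoter regions stood at 9.37 and 9.54 in the replicate 1 libraries and at 6.16 and 5.95 in the replicate 2 libraries. Base composition moved with the ranks as well. In the 912 members with the lowest GC content at the summit (31.3% to 45.8%), the median percentile was 45.9 and 49.4 in the replicate 1 libraries and 68.9 and 70.5 in the replicate 2 libraries. In the 733 with the highest GC content (54.2% to 74.6%) it was 65.1 and 68.5 against 70.2 and 74.9. Among regions with a GC content between 45.8% and 53.7%, the 1770 members stood at 54.3 and 57.4 in the replicate 1 libraries and the 2020 promoter regions at 62.3 and 63.8, while in the replicate 2 libraries members stood at 73.4 and 76.5 and promoter regions at 62.9 and 64.0. The labels do not say what the replicate number marks, and the part of base composition in the order of the ranks was not tested beyond these values.

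The median member ranked slightly higher in the CDK6-K43M libraries within each replicate number, but this design cannot decide whether the variants differ. CDK6-K43M libraries had a median percentile of 65.9 ± 12.02 (SD, n = 2) and CDK6-WT libraries 63.2 ± 12.4 (SD, n = 2), a difference of 2.76 with an exact two-sided permutation p of 0.667, where the smallest p of this design is 0.333. Within the replicate numbers the difference was 3.02 (replicate 1) and 2.51 (replicate 2). The SDs hold the spread between these numbers, which the permutation test ignores, so that test cannot show a difference or its absence. Percentiles are taken within a list, and the CDK6-K43M lists were longer (39797 and 37304 peaks) than the CDK6-WT lists (35189 and 34729). The part of list length in this difference was not tested. Promoter regions differed by 1.58 and intergenic regions by 2.38 in the same direction. Of the 1025 members found in exactly 3 lists, 413 lacked a peak in CDK6-WT replicate 1, 238 in CDK6-WT replicate 2, 168 in CDK6-K43M replicate 1 and 206 in CDK6-K43M replicate 2. A CDK6-WT list was thus the missing one for 63.5% of them (60.5% to 66.4%). Among other regions in 3 lists it was 62.1% of shared intergenic and 50.3% (48.4% to 52.1%) of shared promoter regions. Over all shared regions in 3 lists it was 56.9%. For members the share was 50.7% (47.6% to 53.9%) when all lists were shortened to the 34729 peaks of the shortest one. These shares come from the peak presence that the rule used and are a description.

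Single members were tested with limma on log2 fold enrichment, centred on the median of each library, over all 16376 shared regions with a peak in all 4 lists. After Benjamini-Hochberg adjustment 0 members were called, and 0 of all regions tested (0%). At an unadjusted p under 0.05 limma gave 2 of the 2276 members tested, beside 10 of all regions (0.0611%). This fit left out the replicate number, with which values moved, so its SE holds that spread too. With the replicate number as a block, limma called 0 members and 1 of all regions after adjustment. At an unadjusted p under 0.05 that fit gave 132 members (5.80%), beside 5.12% of all regions. An absence of differences cannot be read from either fit. For 179 members (7.86%) both CDK6-K43M libraries lay above both CDK6-WT libraries, beside 7.27% of all regions, and for 157 (6.90%) both lay below, beside 8.07% of all regions. The fitted difference had a median of 0.02 over the members tested, 90% of them lay between -0.44 and 0.48 on the log2 scale, and the median SE was 0.47.

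The largest fitted increase in CDK6-K43M was that of a member in Pitpnc1, which encodes a phosphatidylinositol transfer protein (chr11:107442976-107443993). Its fold enrichment was 4.61 and 3.16 in the CDK6-WT libraries and 7.37 and 9.83 in the CDK6-K43M libraries, from 18, 23, 26 and 36 summit reads. Both CDK6-K43M values were the higher ones, with a log2 difference of 1.15 ± 0.47 (SE, limma adjusted p = 1.00). A member in Ern1, the gene of the endoplasmic reticulum stress sensor IRE1, had 3.51 and 3.08 in CDK6-WT and 7.65 and 5.89 in CDK6-K43M, and one in Fbxl17, a ubiquitin ligase subunit, had 3.89 and 4.29 against 7.96 and 8.57. In these 3 members the variants did not overlap. In the other direction, the member in Nectin1, a cell adhesion gene, had 11.6 and 8.90 in CDK6-WT and 4.50 and 6.62 in CDK6-K43M, a log2 difference of -0.91 ± 0.48 (SE, limma adjusted p = 1.00). A member in Plppr1 had 11.7 and 7.04 against 6.37 and 3.83. The member in Stx7, a syntaxin of late endosomes, had 10.5 and 18.4 against 5.48 and 10.3, and its variants did not overlap as raw values above but did once each library was centred on its median. With the replicate number as a block the limma adjusted p was 0.140 for Pitpnc1 and 0.348 for Ern1 and Fbxl17. It was 0.467 for Nectin1, 0.482 for Stx7 and 0.510 for Plppr1. These members were singled out by their fitted difference and their values are a description.

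The strongest members lay in genes of varied function. The member with the highest mean percentile, 98.9 over the 4 lists, lay in the body of Rmi2, whose product belongs to the BLM helicase complex (chr16:10843381-10844871, 8313 bp from the nearest start). Its fold enrichment was 19.8 and 27.3 in the CDK6-WT libraries and 18.9 and 34.3 in the CDK6-K43M libraries, with 50, 76, 58 and 87 reads at the summit. The replicate 2 library was the higher one in both variants, and the variants overlapped. Next came intron 2 of Ubqln1, a shuttle protein that brings ubiquitinated proteins to the proteasome (chr13:58197737-58198487), with 18.5, 15.8, 19.8 and 17.99. Intron 2 of Inpp5d held the third (chr1:87650491-87651335). Inpp5d encodes SHIP1, the phosphatase that removes the 5-phosphate from the PI3K product PIP3 and restrains B-cell receptor signalling. Its values were 14.0 and 18.7 in CDK6-WT and 15.3 and 19.1 in CDK6-K43M.

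The widest spread among the 10 strongest was seen in intron 4 of Nod2, an intracellular sensor of bacterial muramyl dipeptide (chr8:88668120-88669435). It had 18.3 and 38.3 in the CDK6-WT libraries and 17.9 and 44.8 in the CDK6-K43M libraries, from 46, 107, 55 and 114 reads. Both replicate 2 libraries were above both replicate 1 libraries there. Intron 1 of Bckdha, a subunit of the branched-chain ketoacid dehydrogenase (chr7:25647302-25648339), went the other way, with 18.7 and 25.9 in the replicate 1 libraries and 11.97 and 11.3 in the replicate 2 libraries. Intron 1 of Rftn1, a lipid raft protein of B cells (chr17:50182276-50183646), had 19.5 and 16.3 in CDK6-WT and 24.2 and 13.9 in CDK6-K43M. Intron 1 of Cd38, an ADP-ribosyl cyclase on the lymphocyte surface (chr5:43884555-43885705), had 17.4 and 19.0 against 13.99 and 18.04. The variants overlapped in Bckdha, Rftn1 and Cd38. Hs3st1, a heparan sulfate sulfotransferase, had 14.8 and 16.4 against 17.1 and 13.8, Sorcs2, a sortilin-family receptor, had 16.97 and 14.6 against 18.4 and 21.03, and Mrtfa, a coactivator of SRF, had 18.8 and 12.9 against 20.2 and 15.6. Both CDK6-K43M values of Sorcs2 were above both CDK6-WT values, which no longer held once each library was centred on its median, while Mrtfa overlapped before and not after centring. The fitted log2 differences of the 10 lay between -0.20 (Cd38) and 0.32 (Sorcs2), with a limma adjusted p of 1.00 for each.

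**Figure D2:**
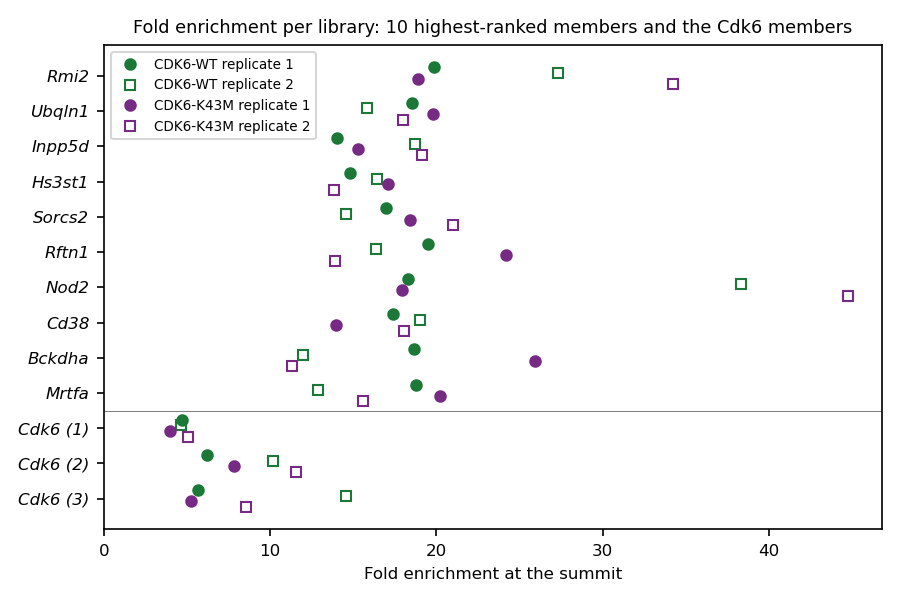
Fold enrichment at the summit (x axis) in each library for the 10 members with the highest mean percentile and, below the line, the 3 members in Cdk6 ordered by position. Filled circles are replicate 1 and open squares replicate 2, green is CDK6-WT and purple CDK6-K43M. In Rmi2, Inpp5d, Nod2 and Cd38 both replicate 2 libraries lie above both replicate 1 libraries, and in Ubqln1, Rftn1, Bckdha and Mrtfa below them.

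Cdk6 itself carried 3 members, all with a peak in every list. They lay in introns 3, 4 and 5 of 7, at chr5:3420047-3420803, chr5:3460445-3461754 and chr5:3490410-3490864. The member in intron 4 was the highest-ranked of them, with a fold enrichment of 6.21 and 10.1 in CDK6-WT and 7.83 and 11.5 in CDK6-K43M, and its summit window held a RUNX match. The member in intron 5, which also held a RUNX match, had 5.63 and 14.6 against 5.23 and 8.57. The member in intron 3 held none of the 5 motifs shown above and had 4.69 and 4.62 against 3.97 and 5.03. The variants overlapped in all 3, with log2 differences of -0.06 ± 0.46 (intron 3), 0.25 ± 0.54 (intron 4) and -0.44 ± 0.65 (intron 5) (SE, limma adjusted p = 1.00 for each).

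Most host genes carried few members. Of the 1660 genes, 924 held 1 member, 601 held 2 to 4 and 135 held 5 or more, and the last group took 950 of the members. Gm20388 held the most, 40. It is a gene model of 4434882 bp that spans many other genes, and 19 of its 40 members lay inside a protein-coding gene of RefSeq as well. Fgfr2 held 17 over a GENCODE span of 2960900 bp, whereas RefSeq gives it 104358 bp, and 11 of the 17 lay inside some RefSeq protein-coding gene. Over all members this share was 95.8% (95.1% to 96.5%). Foxp1, a forkhead factor needed for early B-cell development, held 22, and 13 of these had a peak in every list. Gm20696, whose model overlaps that of Foxp1, held 21. The other genes among the 10 with the most members were Msi2, an RNA-binding protein of hematopoietic stem cells and leukemia (17), the protein kinase C genes Prkca (14) and Prkce (14), Arid1b, a subunit of the BAF chromatin remodeller (14), Zmiz1, a transcriptional coactivator (13), and the sorting nexin gene Snx29 (12).

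Where 1 member stands for a gene here and below, it is the highest-ranked of those with peaks in the most lists. That of Prkca, in intron 2, had a fold enrichment of 21.4 and 15.99 in CDK6-WT and 19.9 and 13.6 in CDK6-K43M. That of Msi2, in intron 6, had 12.7 and 12.6 against 16.03 and 12.8, and its summit window held an ETS and an E-box match. That of Snx29 had 12.7 and 26.8 against 14.9 and 28.7, so that both replicate 2 libraries were the higher ones. The best member of Foxp1 (chr6:99274075-99275051) had 9.43 and 11.7 against 9.65 and 9.39. The variants overlapped in Prkca, Snx29 and Foxp1, whereas in Msi2 both CDK6-K43M values were above both CDK6-WT values, an order that was lost once each library was centred on its median (limma adjusted p = 1.00).

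Many genes of the B-lineage transcription factor list carried members. Of its 40 genes 25 held at least 1 member (62.5%), beside 7.63% of all 21755 protein-coding genes. Because a member can lie only in intron sequence that is clear of exons and starts, the number of members was also set against the length of this eligible intron. The list held 91 members in 4.29 Mb, or 21.2 per Mb, beside 4.96 per Mb over the 666 Mb of all genes. Of its 40 genes, 35 had a shared region at a promoter, and all genes with one held 10.1 per Mb. Foxp1 alone gave 22 of the 91 members. After Foxp1, most members lay in Tcf4, an E protein (8), Erg, an ETS factor (7), and in Bach2, Ebf1 and Ets1 (5 each). Runx3 and Nfatc1 held 4, and Runx2, Aff3, Fli1, Ikzf1 and Runx1 held 3. Pax5, Pou2f1, Elf1 and Foxo1 held 2, and Mef2c, Ikzf3, Mef2d, Lef1, Bcl6, Pou2f2, Etv6 and Tcf7l2 held 1. No member was found in the other 15, and of these Tcf3, Spib, Irf8 and Sox4 had no eligible intron, whereas Tcf12, Ikzf2, Zeb2 and Zfp521 had 89691 to 245609 bp of it.

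Values of these members were spread over most of the range. The highest-ranked one, in intron 6 of Runx2 (chr17:44654427-44655188), had a fold enrichment of 12.4 and 17.4 in CDK6-WT and 17.5 and 16.4 in CDK6-K43M, and its summit held the ETS form of PU.1. In intron 1 of Aff3 (chr1:38657382-38659684), with RUNX, EBF and E-box matches, the values were 10.9 and 12.9 against 9.46 and 16.4. In intron 3 of Erg (chr16:95427457-95428752), with EBF and E-box matches, they were 18.3 and 7.69 against 15.2 and 9.15. The member of Erg was higher in both replicate 1 libraries. In intron 10 of Ebf1, the gene of the factor that commits cells to the B lineage (chr11:44950360-44950848), they were 10.8 and 8.01 against 12.4 and 9.44, and the window held a RUNX match. In Ikzf1, the gene of Ikaros, all 3 members had a peak in every list, and the strongest (intron 7) had 7.53 and 10.6 against 7.51 and 10.8. In Pax5, the gene of the factor that maintains B-cell identity, both members lacked a peak in 1 list. The stronger one, in intron 6, had none in CDK6-WT replicate 1, 13.2 in CDK6-WT replicate 2, and 6.71 and 12.9 in CDK6-K43M. The member in intron 3 of Etv6 had 4.55 and 21.7 against 5.73 and 21.9, with both replicate 2 libraries far above both replicate 1 libraries.

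Other lists of signalling and chromatin genes showed a similar density. Genes of the pre-B receptor, Il7 receptor and recombination list held a member in 13 of 30 cases and 23.2 members per Mb. Inpp5d led with 9 members, followed by Pik3ap1, an adaptor of PI3K below the B-cell receptor (6), Prkcb, a protein kinase C of B-cell receptor signalling (5), Fyn, a SRC-family kinase (4), and Ptprc, the gene of CD45 (3). The strongest member of Pik3ap1 had a fold enrichment of 9.27 and 21.7 in CDK6-WT and 9.90 and 24.1 in CDK6-K43M. That of Prkcb, with an EBF match, had 14.6 and 7.68 against 18.3 and 10.1. The replicate 2 libraries were thus higher in the former and lower in the latter.

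Of the BCR::ABL1, JAK-STAT and PI3K signalling genes 16 of 41 held a member, at 17.3 per Mb. This was 9.87 per Mb with members in all 4 lists and 11.3 per Mb without CDK6-K43M replicate 2. The density over all genes fell too, to 3.42 per Mb with members in all 4 lists. Cblb, an E3 ligase that restrains antigen receptor signalling, had 5, and Rptor (an mTORC1 subunit), Bcl2 (an inhibitor of apoptosis) and Gab2 (a docking protein bound through GRB2 by BCR::ABL1) had 4 each. Bcl2l1, the gene of BCL-XL, had 3, and the strongest of them had 18.1 and 12.7 in CDK6-WT and 17.9 and 17.1 in CDK6-K43M. Stat5b and Abl1 are named here with their values already seen, as the genes of a STAT factor that BCR::ABL1 activates and of the ABL1 kinase. Stat5b held 2 members and the strongest had 14.9 and 11.3 against 16.7 and 12.04, with an EBF match. Abl1 held 1 member in intron 1, with 4.86 and 17.5 against 9.63 and 16.8, the replicate 2 library being the higher one in both variants.

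Of the CDK6 partners and G1 genes 4 of 26 held a member (15.4%), at 25.1 per Mb over a total of only 0.478 Mb. With the nearest start at least 2000 bp away they stood at 22.1 per Mb, below the pre-B receptor list (23.7) and the B-lineage list (22.8). These were Ccnd3, the D-type cyclin that pairs with CDK6 in lymphocytes (6), Cdk6 (3), Rb1, the gene of the retinoblastoma protein (2), and Cdkn2a, which encodes the CDK6 inhibitor p16INK4A (1). The strongest Ccnd3 member, in intron 1 with RUNX and E-box matches, had 11.6 and 8.20 in CDK6-WT and 12.8 and 6.10 in CDK6-K43M. Of the chromatin regulators 13 of 30 held a member, at 22.1 per Mb (14.6 with a -log10 q of at least 5), led by Arid1b (14), Hdac9 (12), Hdac7 (4), Arid1a (3) and Hdac4 (3).

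Lists of other functions stood lower than those above. The T-cell, myeloid and erythroid list, with only 5 members, still exceeded the 4.96 per Mb over all genes. None of the 30 respiratory complex subunits held a member, but they have 0.181 Mb of eligible intron in all, so that 0 members there says little, and 28 of the 30 had a shared region at a promoter. The 25 long neuronal genes held 19 members in 29.4 Mb, 0.646 per Mb, with Sorcs1 (5), Lsamp (4), Dlg2 (3) and Opcml (3) among them. The 424 genes with the most eligible intron, which include these 25, held 2.19 per Mb, below the density over all genes. Only 2 of the 25 had a shared region at a promoter, and all genes without one held 2.22 per Mb. How far gene length and promoter occupancy account for the low density of this list was not tested. T-cell, myeloid and erythroid identity genes held 5 members in 4 of 24 genes, 7.42 per Mb (12.9 with the nearest start at least 2000 bp away), and these were Tox (2), Notch1, Itgam and Tcf7 (1 each). All these densities are descriptions of lists that were chosen with results of these data known.

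**Figure D3:**
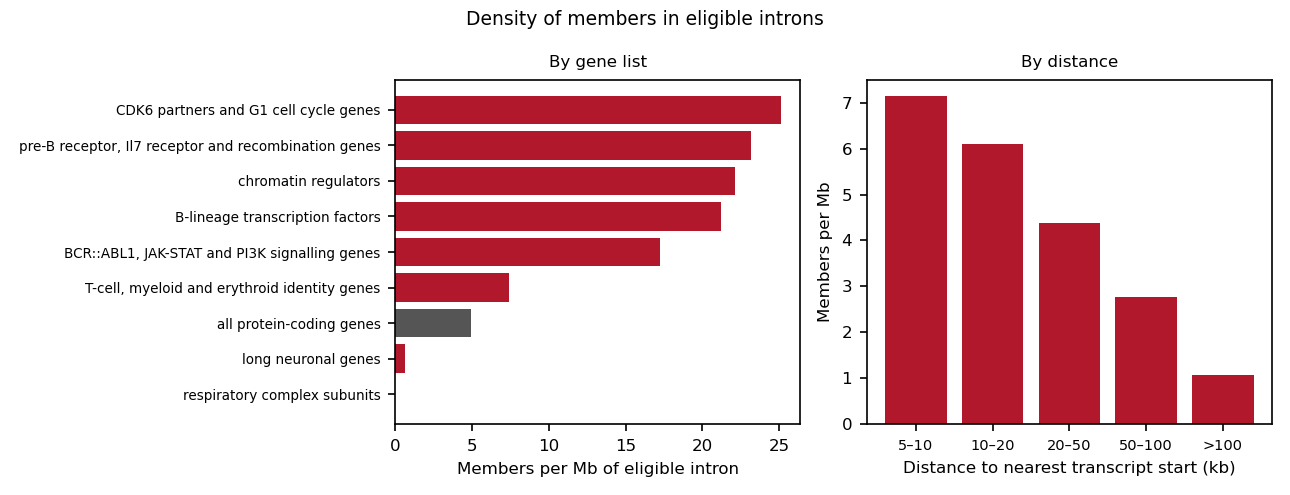
Members per Mb of eligible intron for the 8 gene lists (red) and all protein-coding genes (grey, 4.96), and by distance of the member from the nearest transcript start. The CDK6 partners (25.1, from 12 members), pre-B receptor genes (23.2), chromatin regulators (22.1) and B-lineage factors (21.2) lie close together, and density falls from 7.14 per Mb at 5 to 10 kb to 1.06 per Mb beyond 100 kb.

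Members were denser in genes whose promoter was occupied too. In genes with a shared region at a promoter the density was 10.1 per Mb, and in genes without one 2.22 per Mb. Such a region was present in 27 of 30 pre-B receptor genes, 35 of 41 BCR::ABL1 signalling genes and 24 of 26 CDK6 partners. The same held for 28 of 30 chromatin regulators, but for only 4 of 24 T-cell, myeloid and erythroid genes. The part of promoter occupancy and gene length in the densities of the lists was not tested. Of 1660 host genes 66.1% (63.8% to 68.3%) had a shared promoter region, beside 43.6% (42.7% to 44.5%) of the 11477 genes that had eligible intron but no member. The order was the same within classes of eligible intron length. In the class in which the 679 host genes had a median of 57290 bp, the shares were 67.9% (64.3% to 71.3%) and 43.3% (41.2% to 45.3%), and in that in which the 392 host genes had a median of 159292 bp they were 66.6% (61.8% to 71.1%) and 22.2% (19.4% to 25.3%).

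The density also fell with distance from a start, from 7.14 per Mb at 5000 to 10000 bp through 6.10, 4.37 and 2.76 to 1.06 per Mb beyond 100000 bp. Height did not follow this course, since the median of the members' mean percentile was 59.9 in the nearest class and 56.7 in the farthest. First introns of the longest coding transcript held 1051 members at 6.58 per Mb, internal introns 1909 at 4.27 and last introns 224 at 4.45, and 117 members lay outside the introns of that transcript. The median gap between neighbours was 77402 bp, while 869 of 3281 gaps were below 10000 bp. Among chromosomes the density ranged from 1.15 per Mb on X, with 38 members, to 7.94 per Mb on chromosome 11.

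The DNA at the member summits differed from its flanks and from promoters. Summit windows, reaching 100 bp to either side, had a GC content of 49.6%, against 45.1% in windows 1000 bp to either side and 61.6% at shared promoter summits. The observed to expected ratio of CpG was 0.233, against 0.777 at promoter summits and 0.295 at intergenic summits. Sequence masked as repeats made up 10.3% of the summit windows and 23.2% of the flanks.

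Motifs of ETS, EBF, RUNX and E-box factors were frequent at the summits and more so than in the flanks. The ETS form without a CpG (AGGAAGT) was found in 21.9% of the member windows (20.5% to 23.3%) and in 5.39% of the flanks, which is 4.06 times as often (3.60 to 4.57). Its extension GAGGAAGT, the form that PU.1 prefers, is counted within it and was found in 9.39% against 1.35%. EBF (TCCCNNGGG) was found in 14.7% (13.5% to 15.9%) against 2.76%, RUNX (TGTGGTT) in 14.9% (13.7% to 16.1%) against 4.82%, and the E-box CAGCTG in 25.7% (24.2% to 27.2%) against 10.0%. Over 24781 windows of the same length set evenly through all eligible introns the shares were 5.08% (AGGAAGT), 1.79% (EBF), 4.51% (RUNX) and 7.41% (CAGCTG). At least 1 of the RUNX, ETS, EBF and E-box forms was present in 69.0% of the member windows (67.4% to 70.6%) and 33.0% of the flanks. RUNX and ETS were found together in 90 members (2.73%) and in 0.288% of the flanks. These intervals cover counting error only.

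Smaller gains were seen for AP-1 (TGANTCA), with 10.1% against 6.36% (ratio 1.58, 1.38 to 1.81), STAT (TTCNNNGAA), with 8.79% against 6.10%, FOX (TGTTTAC), with 3.57% against 2.48%, and the E-box CAGGTG, with 18.5% against 14.6%. MEF2 (CTATTNATA) had a ratio of 1.04 (0.649 to 1.67). Less frequent than in the flanks were NFY (CCAAT), with a ratio of 0.737 (0.675 to 0.805), the GATA factor motif (AGATAAG), with 0.635 (0.476 to 0.846), and IKZF (TGGGAAT), with 0.491 (0.375 to 0.641).

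Several forms that lead at promoters were rare in members. The CpG form of ETS (CGGAAGT) was found in 1.48% of the members and 11.7% of the promoter summits, SP1 (GGGCGG) in 4.88% and 46.8%, NRF-1 (GCGCNTGCG) in 0.394% and 11.7%, and the CTCF core (AGGGGGCG) in 0.727% and 7.10%. Against the members' own flanks they were nevertheless more frequent. The ratios were 3.38 (2.14 to 5.34) for the CpG form of ETS and 3.25 (1.35 to 7.83) for NRF-1. They were 2.53 (1.39 to 4.61) for the CTCF core and 1.66 (1.35 to 2.04) for SP1. The NRF-1 ratio rests on 13 summit and 8 flanking windows and that of the CTCF core on 24 and 19. Over the other settings tried these ratios ran from 1.83 to 6 (NRF-1) and from 1.25 to 3.29 (CTCF core). Summit windows were richer in GC than flanks (49.6% against 45.1%), and the part of GC content in these ratios was not tested.

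**Figure D4:**
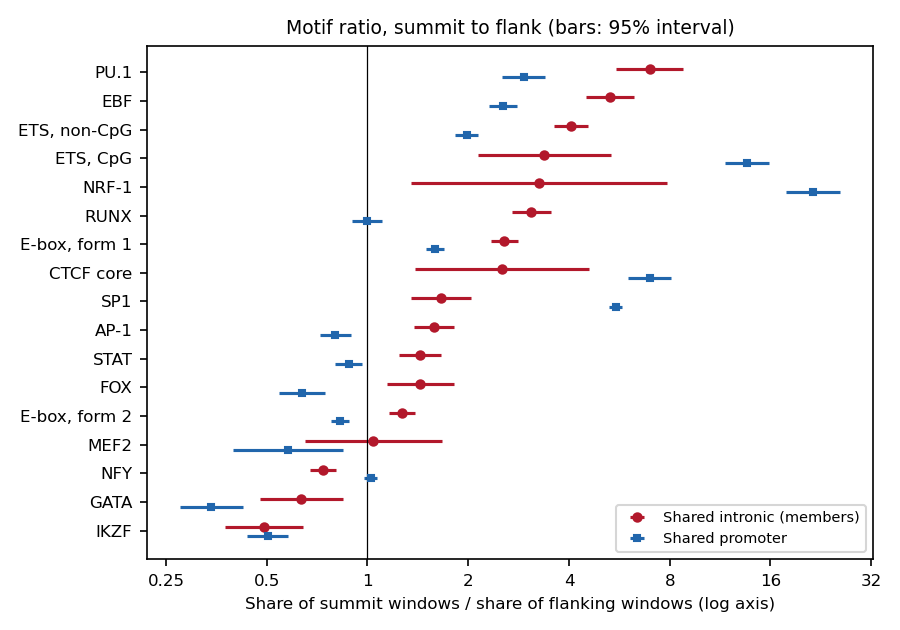
Ratio of the share of summit windows with a motif to the share of flanking windows (log axis) for shared intronic members (red circles) and shared promoter regions (blue squares), with 95% intervals. E-box form 1 is CAGCTG and form 2 CAGGTG. In members PU.1 (6.97), EBF (5.32) and the non-CpG ETS form (4.06) stand highest, whereas NRF-1 (21.4) and the CpG form of ETS (13.6) stand highest at promoters.

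To test these differences, shares were computed from the summits of each library on their own. The AGGAAGT share of the members was 21.9% and 22.1% in the CDK6-WT libraries and 21.8% and 21.6% in the CDK6-K43M libraries. It exceeded that of promoter regions by 12.2 ± 0.487 percentage points (SD, n = 4 libraries, higher in 4 of 4) and that of intergenic regions by 3.99 ± 0.329 (4 of 4). RUNX exceeded promoters by 9.93 ± 0.460 and intergenic regions by 0.759 ± 0.449, and CAGCTG exceeded them by 11.1 ± 0.355 and 0.688 ± 0.523, again in 4 of 4 libraries. STAT was higher than at promoters by 3.27 ± 0.435 and lower than in intergenic regions by 2.55 ± 0.289 points in each library (mean difference -2.55). Each of these differences had an exact two-sided sign-flip p of 0.125, the smallest that 4 libraries allow, and an adjusted p of 0.145 over the 51 contrasts of 17 motifs. None could therefore reach 0.05 in this design. The 4 shares also come largely from the same regions, since a shared region has a peak in at least 3 lists. Their small SD and common direction are thus not independent replication.

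The EBF share moved with the replicate number. It was 16.4% and 15.3% in the replicate 1 libraries and 12.9% and 13.2% in the replicate 2 libraries, while the share in the flanks lay between 2.66% and 2.89%. Between the variants 3 of the 17 motifs had shares that did not overlap. AGGAAGT was lower in both CDK6-K43M libraries (mean difference -0.302 points), AP-1 was 10.3% and 10.5% in CDK6-WT against 10.2% and 9.60% in CDK6-K43M, and NRF-1 was 0.346% and 0.229% against 0.351% and 0.388%. For each the two-sided exact permutation p was 0.333, which is the lowest possible with 2 against 2 libraries, and there was an adjusted p of 1 over the 17 motifs, so this design cannot show a difference or its absence. RUNX differed by 0.0754 points.

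The E-box CAGCTG became more frequent with the rank of the member. When members were divided by their mean percentile into 4 groups of 825 or 826, CAGCTG was found in 21.9% of the lowest (19.2% to 24.9%) and 32.7% of the highest (29.6% to 36.0%). The intervals of the lowest and highest group overlapped for PU.1, with 7.87% (6.22% to 9.91%) and 10.9% (8.96% to 13.2%), and for EBF, with 13.8% (11.6% to 16.3%), 14.1%, 13.2% and 17.6% (15.1% to 20.3%) from the lowest to the highest group. RUNX was found in 12.95% and 15.6%, NFY in 17.8% and 14.1% and FOX in 4.24% and 3.03%. The mean percentile pools lists in which members stand at different ranks, and for a member in 3 lists it leaves out the fourth.

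**Figure D5:**
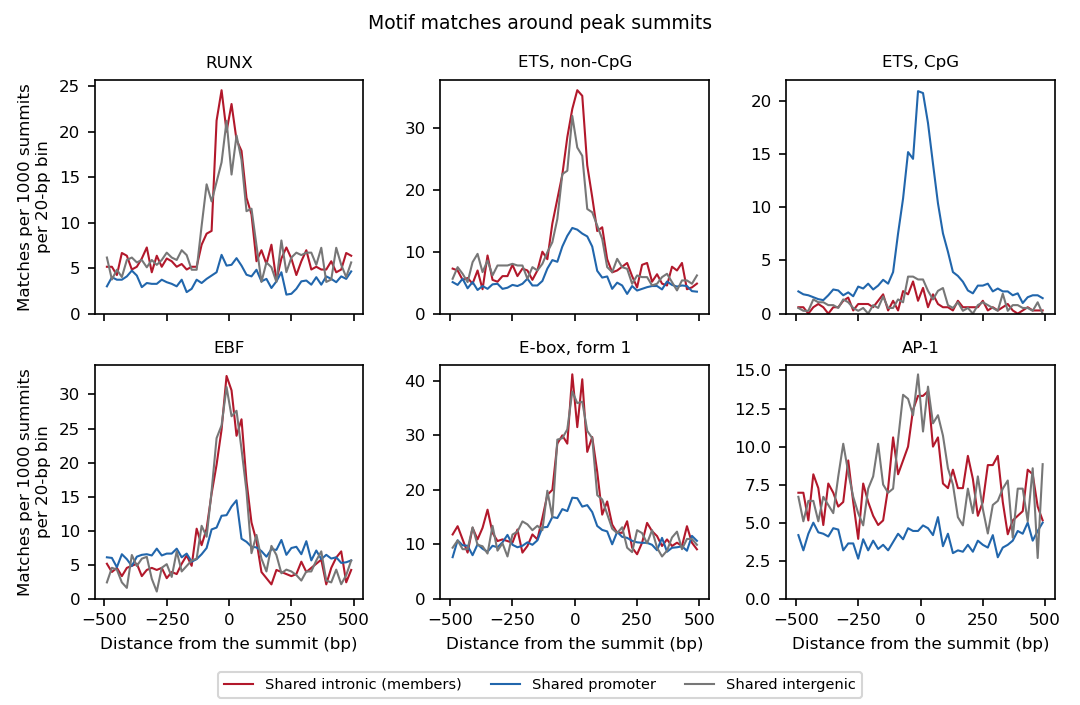
Motif matches per 1000 summits in bins of 20 bp (y axis) by distance from the summit in bp (x axis) for members (red), shared promoter regions (blue) and shared intergenic regions (grey). In members RUNX, the non-CpG ETS form, EBF and the E-box CAGCTG (form 1) are concentrated within about 100 bp of the summit, the members and intergenic regions run close to each other, and the CpG form of ETS peaks at promoters.

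The limit of 5000 bp cuts through a continuous range of distances. The nearest members inside it lay in E130308A19Rik (5002 bp from a start), with a fold enrichment of 15.5 and 15.5 in CDK6-WT and 13.9 and 17.7 in CDK6-K43M, and in Colq (5005 bp), with 9.57 and 5.12 in CDK6-WT, 7.76 in CDK6-K43M replicate 1 and no peak in CDK6-K43M replicate 2. Just outside it were regions in Cd82 (4990 bp), with 11.9 and 18.1 against 8.48 and 17.8, and in Amotl1 (4988 bp), with 4.23 and 6.68 against 4.66 and 6.61.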

How the data were processed

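ChIP-seq against the HA tag was analysed in 4 libraries, 2 with CDK6-WT and 2 with CDK6-K43M. The 2 Input samples were not analysed here. Chromatin was fixed with DSG and formaldehyde. According to the submitters' processing notes and the methods of the study, read trimming was done by the authors in Trimmomatic 0.36, alignment to mm10 in BWA 0.7.15, removal of blacklisted and multiply mapped reads in bedtools and SAMtools 1.3.1, and peak calling for each library in MACS2 2.1.0. The deposited peak lists hold the fold enrichment at the summit, which the authors' peak caller computed over the local background, the -log10 p and -log10 q, as deposited, and an integer score that the authors' caller derives from the q-value. No read totals are given in these lists, so the depth is known only through the recovered summit reads.

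From these lists regions were merged, annotated with GENCODE vM21 and described by fold enrichment, recovered reads and the percentile of -log10 q within a list. Python 3.11.15, pandas 2.3.3, numpy 2.4.6 and scipy 1.17.1 were used, with limma 3.58.1 in R 4.3.3 for single regions and matplotlib 3.10.9 for plots. Scripts that fit or test many regions were tested on simulated data. Libraries were grouped by their labels. Eligible intron is sequence of protein-coding genes clear of all exons and at least 5000 bp from a start. Medians per library were compared by exact sign-flip or permutation tests. Motifs were searched on both strands in windows reaching 100 bp to either side of the summit of the strongest peak and in flanks 1000 bp away, and windows every 20000 bp of eligible intron served as the background. The share of windows with at least 1 match was given with a 95% Wilson interval. Alternatives were other thresholds, annotations, window sizes and left-out libraries. Genes were named by rank, by the number of members, by the largest fitted differences and by gene lists. Members, lists and motifs were chosen with earlier results of these data known. Sequences of 1 chromosome were not considered for printing.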

Additional observations from a re-analysis of the deposited data

Results flagged for a closer look

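The position of the members relative to other shared regions differed between the libraries numbered 1 and 2, and this difference was not tested. Members minus shared promoter regions, in median percentile of -log10 q, came to -20.8 in CDK6-WT replicate 1 and -20.2 in CDK6-K43M replicate 1, but to 14.3 in CDK6-WT replicate 2 and 16.1 in CDK6-K43M replicate 2. Members minus shared intergenic regions gave -3.87 and -3.04 in the replicate 1 libraries and 6.74 and 6.69 in the replicate 2 libraries. Each library of one number thus moved opposite to each library of the other number. Once each library was centred on its median log2 fold enrichment, the libraries numbered 1 minus those numbered 2 had a median difference of -0.41 for members and 0.30 for shared promoter regions with a peak in all 4 lists.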

How the results depend on the processing

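The number of members fell from 3301 to 1231 with a -log10 q of at least 10 and to 2199 with the nearest start at least 10000 bp away, by construction of these rules, and stayed within 1.5 times under the other settings tried. The difference between CDK6-K43M and CDK6-WT in the members' median percentile lay between -6.64 and 12.4 when 1 library was left out. It was -6.64 without CDK6-WT replicate 1 and -2.88 without CDK6-K43M replicate 2. Such a setting compares 1 replicate number of a variant with both of the other, so these values hold the spread between the numbers. It also asks for a peak in all remaining lists. The mean difference between members and promoter regions lay between -6.85 and 3.35 when 1 library was left out (3.08 without CDK6-WT replicate 1, 3.35 without CDK6-K43M replicate 1) and was 2.17 among regions of matched GC content, an alternative chosen after seeing the data. The cause was not tested. The share of 3-list members that lacked a CDK6-WT list was 50.7% with lists of equal length and 59.2% with summits extended by 100 bp. The density of members in 3 gene lists moved by more than 1.5 times under a setting, which was 9.87 per Mb for the BCR::ABL1 list, 14.6 for chromatin regulators and 12.9 for the T-cell, myeloid and erythroid list. The density over all genes, with which a list is compared, moved as well, between 3.42 and 5.53 per Mb over these settings.

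With the replicate block the difference between the variants was 2.76 (exact two-sided sign-flip p = 0.5). This is the smallest p that the test can give here, so it cannot decide. With the block limma called 0 members and 1 of all 16376 regions at an adjusted p under 0.05, the lowest adjusted p of a member being 0.140. At an unadjusted p under 0.05 there were 132 of 2276 members, beside 839 of 16376 regions. The SE in the report is that of the fit without the block, which includes the spread between the numbers. The labels do not say what the numbers mark. Deviations of libraries with the same number correlated with r = 0.759 over the 16376 regions and 0.720 over the members. Few summit reads and 2 libraries per variant limit what could be detected in single members.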
